A study of Mus musculus with 1 sample.

Results

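The HMGA, IGF2BP and LIN28 genes encode proteins that are abundant in embryonic tissue, scarce in most adult tissue and present again in many tumors. They were chosen by gene symbol from a list of 7 genes (Hmga1, Hmga2, Igf2bp1, Igf2bp2, Igf2bp3, Lin28a and Lin28b) that was drawn up with results of these data known, so their signals are given as a description. A probe set is a group of short array probes that report 1 target transcript. Of the 7 genes, 5 had at least 1 probe set annotated to that gene alone, with 17 probe sets in all, out of 18193 genes with 34945 such probe sets on the array. Hmga1 and Igf2bp2 had no probe set assigned to them in the annotation used and were not analysed here. No probe set named a member together with another gene.

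The material was total RNA of mouse lung cancer cells of the B6/J strain, grown in RPMI1640 medium with fetal bovine serum and collected close to confluence. They are a cell line derived from a KR tumor, labelled KR Primary. The labels do not spell out KR or give the allele, the driver, the age of the mouse or the passage. The data analysed here were 1 sample on 1 Affymetrix array, so the results are single measurements with no second condition, no replicate error and no test.

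HMGA proteins bind the minor groove of AT-rich DNA and bend it, which helps other factors to assemble on chromatin. IGF2BP proteins bind messenger RNAs and affect their stability, location and translation. LIN28 proteins bind the precursors of the let-7 microRNAs and block their maturation, and mature let-7 in turn represses messenger RNAs that include those of Hmga2, Igf2bp1 and Lin28b. Hmga2 has been described in advanced mouse lung adenocarcinoma that has lost the lung transcription factor Nkx2-1.

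The let-7 sequences are shown because they connect the 3 families. In the RefSeq table of build GRCm38.p6, 13 of 1738 mature microRNA entries, with 11 different sequences, carried the let-7 seed, which is bases 2 to 8 from the 5′ end and is printed in capitals. The first 3 lines are let-7 members from chr13:48538239-48538260 (minus strand), chr13:48536078-48536099 (minus strand) and chr9:106178846-106178867 (plus strand), and the last is a relative from chrX:151913229-151913250 (plus strand).
mmu-let-7a-5p: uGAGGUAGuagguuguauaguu
mmu-let-7d-5p: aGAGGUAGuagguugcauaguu
mmu-let-7g-5p: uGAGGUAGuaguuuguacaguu
mmu-miR-98-5p: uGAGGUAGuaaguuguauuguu
Each of the last 3 differs from let-7a at 2 of 22 bases, all outside the seed. Mature microRNAs were not measured in these data.

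LIN28 proteins contact let-7 precursors at the loop side of the hairpin, through a zinc knuckle that prefers the letters GGAG. Those letters stood downstream of the mature 5′ arm in 9 of 11 let-7 hairpins of the table, and anywhere in the hairpin in 44.5% of all 1005 hairpins. The let-7g precursor (chr9:106178840-106178927, plus strand) is one that has them, in capitals, and the let-7b precursor (chr15:85707319-85707403, plus strand) is one of the 2 that do not.
Mirlet7g: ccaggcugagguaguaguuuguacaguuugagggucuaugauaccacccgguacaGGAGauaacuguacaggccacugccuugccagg
Mirlet7b: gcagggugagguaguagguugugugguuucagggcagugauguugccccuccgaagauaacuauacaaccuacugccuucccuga
A match is a description of the sequence and does not show binding.

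Signals were read against 126 probe sets of 112 genes of smell, taste and hair follicle cells on the same array. Their 95th percentile, 16.8, is the background line, and their highest signal, 60.6, is the upper background limit. Signals are in arbitrary units on a linear scale, and since probe sets differ in brightness, the order of signals between genes is not the order of their RNA amounts. Of the 5 measured members, 3 passed the line on 1 or more probe sets (Hmga2, Igf2bp1 and Igf2bp3), where 63.3% of all measured genes did. Above the upper limit were 2 of the 5 (Hmga2 and Igf2bp1), where 47.5% of all measured genes were. By probe sets, 9 of 17 passed the line, where 60.9% of all one-gene probe sets did, and 8 passed the upper limit, where 41.1% did. These shares are near those of the whole array, so the counts do not set the group apart. In a bulk culture, fewer cells with a transcript and less of it per cell cannot be told apart.

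**Figure D1:**
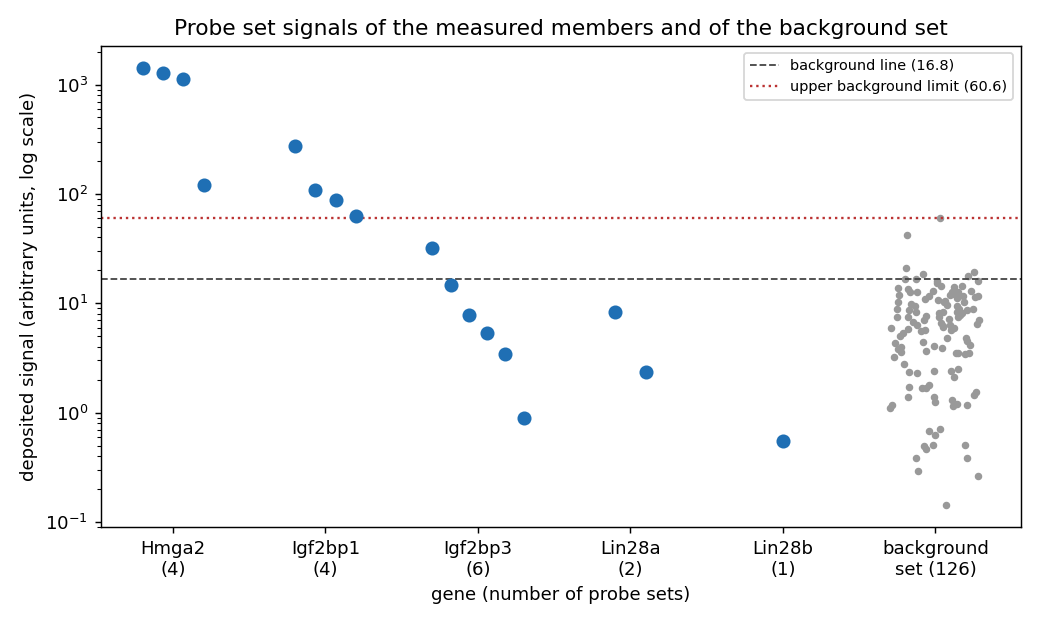
Deposited signal (arbitrary units, log axis) of each probe set of the 5 measured genes and, at the right, of the 126 background probe sets, where each point is 1 probe set of the single array. All probe sets of Hmga2 and Igf2bp1 lie above the upper limit of 60.6, 1 Igf2bp3 probe set (32.0) lies between the line and the limit, and all others lie below the line of 16.8.

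Hmga2, the chromatin architectural gene, gave 1423, 1275, 1119 and 121 on its 4 probe sets. All 4 lay above the upper limit, and the first 3 were close together while the fourth, 1446196_at, was well below them. Against the background line they were 84.7, 75.9, 66.6 and 7.22 times as high. The highest of them exceeded the signals of 94.9% of all measured genes, and the median of the 4 exceeded the medians of 96.4%. Genes with more probe sets pass the line more often, so the comparison was repeated among the 1093 genes with 4 probe sets. Of these, 89.7% had a lower highest signal than Hmga2, and 39.8% had every probe set above the line as Hmga2 did. The brightest Hmga2 probe set, 1450780_s_at, has the ending of probe sets that can match several transcripts. Without it, the highest signal was 1275 on 1450781_at. The SD of the 4 log2 signals was 1.70, and the median SD over the 9010 genes with 2 or more probe sets was 1.45.

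Igf2bp1, an RNA-binding protein of fetal tissue, gave 277, 108, 87.7 and 62.9 on its 4 probe sets. All were above the upper limit, but the lowest, 1459825_x_at, exceeded it only narrowly, and its ending marks probes that can take signal from other genes. The signals were from 3.74 to 16.5 times the line. Among genes with 4 probe sets the highest Igf2bp1 signal stood in the middle, above 54.5% of them, and in that class 71.8% of genes passed the upper limit. The log2 SD between its probe sets was 0.92, below the median of 1.45. All 4 probe sets thus gave the same call at moderate signals.

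Igf2bp3, a close relative of Igf2bp1, gave 32.0, 14.8, 7.86, 5.32, 3.42 and 0.894 on its 6 probe sets. Only 1433731_at passed the line, and none passed the upper limit. The value just inside the line was thus 32.0 and the value just outside it 14.8. The median of the 6 signals was 6.59, and the background set had a median of 6.41. Among the 244 genes with 6 probe sets, 89.3% had at least 1 above the line, and the highest Igf2bp3 signal exceeded those of 14.3% of them. Igf2bp3 was not above the line when its median, all of its probe sets, the 99th percentile of the background set or a line drawn from the median and the scatter of that set decided, so that its call rests on 1 probe set.

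Lin28a, the form of LIN28 best known from embryonic stem cells, gave 8.35 and 2.37 on its 2 probe sets. Both were below the line, and the higher one exceeded 64.3% of the background probe sets. Lin28b gave 0.551 on its only probe set, below 92.9% of the background probe sets. With a single probe set, a dim signal can come from few transcripts or from poorly responding probes, and these cannot be told apart here. Among genes with 1 probe set, 48.4% were above the line, and 72.4% of genes with 2 were. No probe set of either LIN28 gene passed the line.

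**Figure D2:**
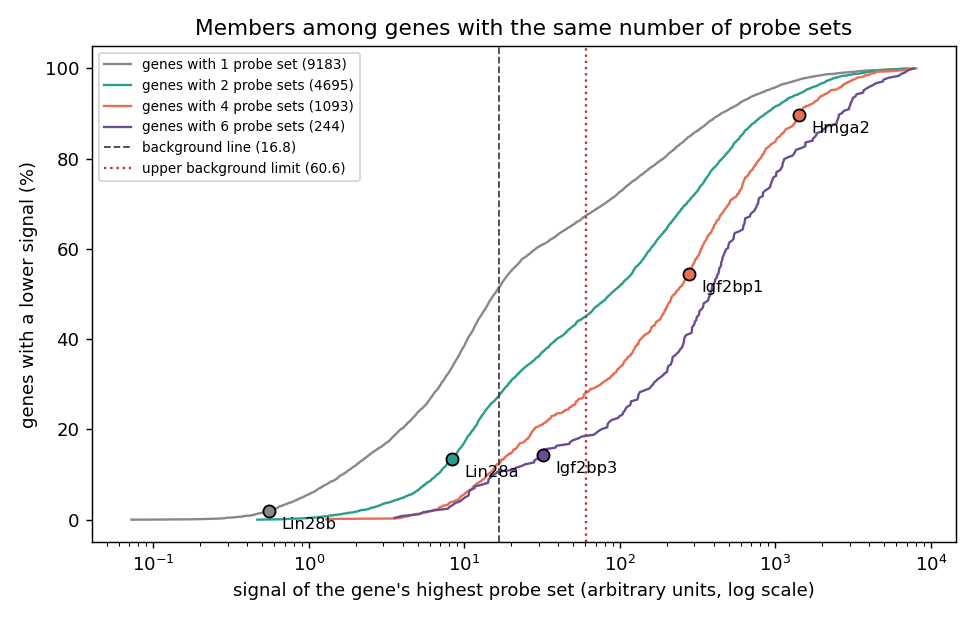
Share of genes (%) with a lower highest signal, for genes with 1, 2, 4 and 6 probe sets, against signal (arbitrary units, log axis), with each measured member marked on the curve of its own class. Hmga2 stands at 89.7% and Igf2bp1 at 54.5% of the genes with 4 probe sets, Igf2bp3 at 14.3% of those with 6, Lin28a at 13.4% of those with 2 and Lin28b at 1.96% of those with 1.

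Transcripts of the machinery that LIN28 proteins act on gave signal, while the LIN28 genes were at background. Of 18 measured genes for LIN28 partners and let-7 processing, 16 passed the line (88.9%) and 15 the upper limit (83.3%). Of all measured genes, 63.3% and 47.5% did. The line was passed by 72.4% of genes with 2 probe sets, 87.5% with 4 and 89.3% with 6, and the lists were not matched for this number. The median gene signal was 473, where all measured genes had a median of 48.3. The 3 RNA helicase genes Ddx17, Ddx5 and Ddx3x, of which the first 2 assist the nuclear cropping of microRNA precursors, gave 3246, 3036 and 2595. The 2 genes not above the line were Msi1, a neural RNA-binding protein that works with LIN28, at 6.30 and Trim71, a stem cell gene that is itself a let-7 target, at 5.15. Outside the rule for named genes, and chosen after their values were seen, were the genes of the successive steps. The nuclear cropping enzyme gene Drosha gave 1105 and its partner Dgcr8 gave 283. Xpo5, the export factor, gave 127, Dicer1, the cytoplasmic cutting enzyme, gave 201 and Ago2, which holds the mature microRNA, gave 845. The uridylating enzymes that LIN28 recruits to let-7 precursors gave 430 for Tut7 and 152 for Tut4, and of the 5 Tut4 probe sets 1 passed the upper limit. Dis3l2, the nuclease that degrades the uridylated precursor, gave 42.4, between the line and the limit.

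Messenger RNAs that share let-7 regulation with Hmga2 and Igf2bp1 also gave signal. Of 23 measured genes reported as let-7 targets outside the 7 genes, 22 passed the line (95.7%) and 18 of them the limit (78.3%). Their median was 201, and 63.3% and 47.5% of all measured genes passed the line and the limit. Ccnd2 and Ccnd1, the genes of the D-type cyclins of G1 phase, gave 5690 and 4340, and Thbs1, which encodes a matrix glycoprotein, gave 1532. Myc, a growth-promoting transcription factor gene and also a reported IGF2BP target, gave 1195 on its only probe set. Arid3b, a DNA-binding protein gene, gave 19.3, barely above the line, and only Trim71 was below it. Many of these genes are expressed in most dividing cells, and the counts say nothing about the amount of let-7.

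Genes of RNA-binding proteins that work with the IGF2BP proteins passed the line in all 16 measured cases and the upper limit in 15 (93.8%). Of all measured genes, 63.3% and 47.5% did. The median of the 16 was 1417. Pabpc1, the poly(A)-binding protein gene, gave 6295 and Hnrnpa2b1, a reader of RNA marks, gave 3926. Ybx1, a cold shock domain protein gene, gave 4302, 98.9 and 28.3 on its 3 probe sets. The lowest were Carm1, an arginine methyltransferase gene, at 189 and the neuronal Elavl2 at 23.0. Of 19 measured genes whose RNAs are reported to be bound by IGF2BP proteins, 17 passed the line (89.5%) and 14 the upper limit (73.7%). Their median was 679. Tmsb4x and Actb, genes of actin and an actin-binding peptide, gave 6357 and 5921. At the other end stood Mapk4 at 11.9 and Igf2, the growth factor gene that gave the IGF2BP family its name, at 7.57 and 5.57 on its 2 probe sets. Igf2 was thus at background in cells with Igf2bp1 signal.

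Of 18 measured genes of the IGF and insulin axis, Igf2 among them, 11 passed the line (61.1%) and 8 the limit (44.4%). These shares were near the 63.3% and 47.5% of all measured genes. The count above the line was 6 when every probe set of a gene had to pass and 7 with the line drawn from the median and scatter of the background set. Igfbp3 and Igfbp7, which encode secreted IGF-binding proteins, gave 1986 and 1907, and Igf2r, the receptor gene that clears IGF2, gave 677. For Igfbp7 this was 1 of 3 probe sets above the limit. Igfbp2 at 4.40 and Igfbp1 at 2.06 were below the line.

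Of 19 measured oncofetal and fetal growth genes, 11 passed the line (57.9%, near the 63.3% of all genes) and 5 of them the limit (26.3%, against 47.5%), with a median of 17.5. The 11 became 7, 4 and 6 with the 99th percentile, the line from median and scatter, and the rule that every probe set must pass. The brightest was Ahcy at 2153, which the list included although it encodes an enzyme of methyl group metabolism. Cldn6, a fetal tight junction gene, gave 856 and Afp, the alpha-fetoprotein gene of fetal liver, gave 158 on the highest of 5 probe sets. The imprinted gene Peg3 at 4.86 and the retinoid-binding protein gene Crabp1 at 1.93 were below the line. Of 16 pluripotency and germline genes, 3 passed the line but none the limit, with a median of 6.94, close to the background median of 6.41. The 3 were Tfcp2l1 at 52.5 and Esrrb at 39.2, each on 1 of 3 probe sets, and Dppa5a at 30.1. Of the 16, the lowest were Tdgf1 at 0.748 and Nanog at 0.397. Igf2bp3 at 32.0, Lin28a at 8.35 and Lin28b at 0.551 lay within the range of these genes, and Hmga2 and Igf2bp1 above it.

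**Figure D3:**
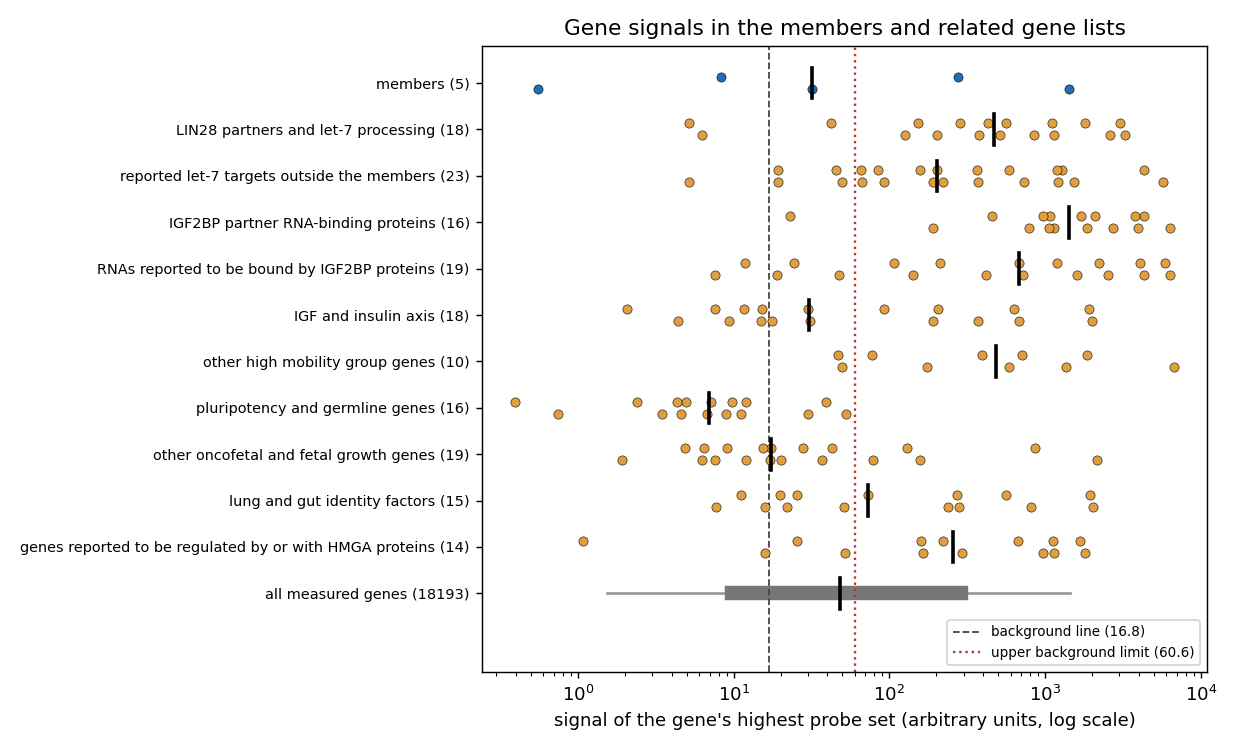
Signal of the highest probe set (arbitrary units, log axis) of each measured gene in the member group and in 10 related lists, with the median of each as a black bar, and at the bottom all 18193 measured genes with their median of 48.3 (thick bar, 25th to 75th percentile; thin line, 5th to 95th). The pluripotency and germline genes have a median of 6.94, and the IGF2BP partner genes one of 1417.

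The chromosomal surroundings of the members were described through the 2 nearest measured protein-coding genes on each side, with the gene order of RefSeq (assembly GRCm38.p6). Beside Hmga2 on chromosome 10, the direct neighbours Tmbim4 and Msrb3 gave 417 and 17.5, and Irak3 and Lemd3 farther out gave 9.12 and 275. Beside Igf2bp1 on chromosome 11, B4galnt2 gave 9.36, Gip 10.1 and Gngt2 10.4, all below the line, and Snf8 gave 338. Igf2bp1 thus gave signal between 2 direct neighbours at background. Igf2bp3 on chromosome 6, at 32.0, lay between the line and the limit, and its direct neighbours Malsu1 and Tra2a gave 512 and 1318. Lin28a on chromosome 4 lay at background beside Dhdds at 194 and Crybg2 at 43.2, with Arid1a at 552 and Cd52 at 7.72 farther out. Around Lin28b on chromosome 10, Bves gave 2.52, Popdc3 5.22 and Grik2 8.43, and only Hace1, at 53.6, passed the line. These genes were picked by position alone, and signals of different genes are not compared as amounts.

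**Figure D4:**
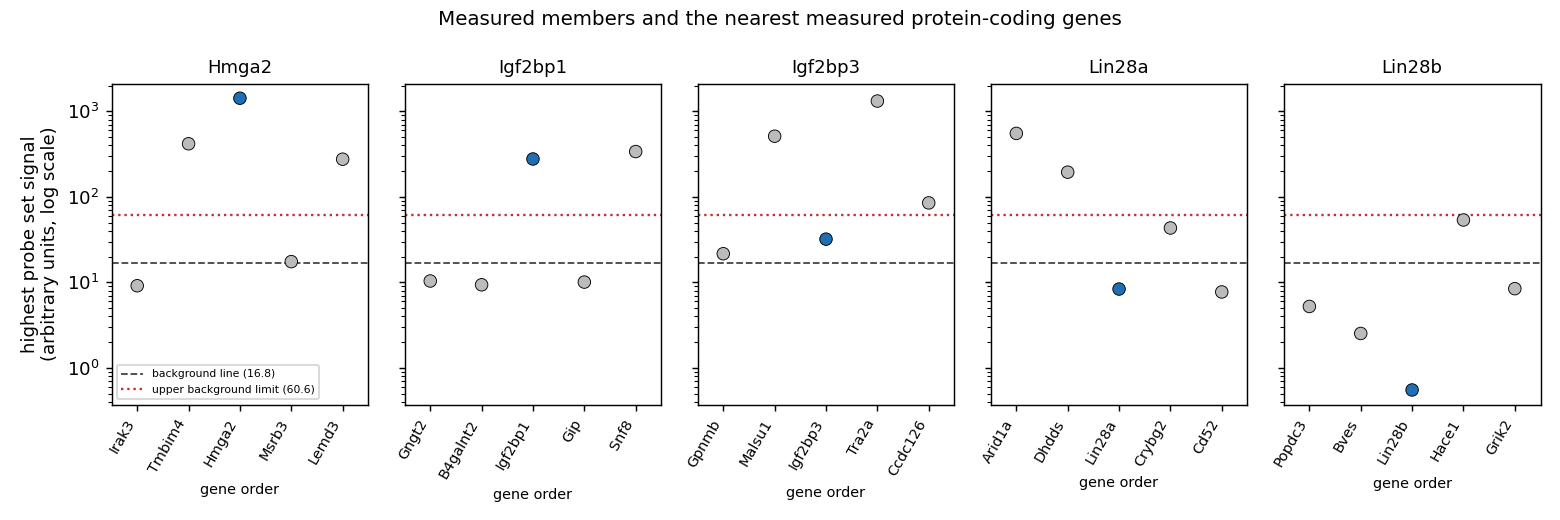
Highest probe set signal (arbitrary units, log axis) of each measured member (blue) and of the 2 nearest measured protein-coding genes on each side (grey), in chromosomal order. Igf2bp1 at 277 stands between B4galnt2 at 9.36 and Gip at 10.1, and Igf2bp3 at 32.0 between Malsu1 at 512 and Tra2a at 1318.

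The sequences upstream of the start sites differed in base composition among the members. RefSeq windows of build GRCm38.p6 matched 4 of the 5 measured genes, all but Igf2bp1, and the 250 bases before the start were compared with those of 32851 windows. On the gene's own strand, C and T made up 70.8% of the Hmga2 window and 68.0% of the Igf2bp3 window, where 0.414% and 0.737% of all windows reached as much. The share was 44.8% for Lin28b and 37.2% for Lin28a. Runs of 8 or more letters that were all C or T, searched on the gene's strand only and printed in capitals, occurred 7 times for Hmga2, 4 times for Igf2bp3 and once each for Lin28a and Lin28b, and at least 1 such run was found in 67.4% of all windows. The windows of Hmga2 (chr10:120476470-120476719, minus strand) and of Lin28b (chr10:45470202-45470451, minus strand) are shown as those of a member with signal on every probe set and of one with none.
Hmga2: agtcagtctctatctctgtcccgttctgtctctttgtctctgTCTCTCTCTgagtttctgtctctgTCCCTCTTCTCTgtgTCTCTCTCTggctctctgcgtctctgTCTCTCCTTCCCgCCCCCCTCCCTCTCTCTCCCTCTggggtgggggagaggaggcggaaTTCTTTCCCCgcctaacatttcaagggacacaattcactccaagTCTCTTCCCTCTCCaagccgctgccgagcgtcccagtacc
Lin28b: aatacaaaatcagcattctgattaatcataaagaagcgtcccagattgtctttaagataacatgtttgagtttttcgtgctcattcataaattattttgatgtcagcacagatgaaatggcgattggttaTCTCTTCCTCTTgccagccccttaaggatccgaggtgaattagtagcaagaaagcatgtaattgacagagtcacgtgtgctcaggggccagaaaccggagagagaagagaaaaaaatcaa
The share of C and T was 1 of several features computed for these windows. Among these 4 genes, the 2 pyrimidine-rich windows belonged to Hmga2 and Igf2bp3, the 2 above the line. Igf2bp3 passed it on 1 probe set and fell below it under 4 of 7 alternatives, so the division depends on that call. The other 2 windows belonged to the genes below the line, and Igf2bp1, also above the line, had no window. G and C together did not divide the genes this way, with 61.2% for Lin28a, 60.4% for Igf2bp3, 56.4% for Hmga2 and 39.2% for Lin28b. The count of the letters CG gave the same division, but narrowly, with 21 for Igf2bp3, 8 for Hmga2, 7 for Lin28a and 6 for Lin28b. With 4 windows this is a description, and no relation to the signals was tested.

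The label of lung cancer cells was checked with cell type markers. All 10 epithelial markers were above the upper limit, with a summed signal of 37877. Of lung epithelial markers 4 of 10 passed the line and 2 the limit, with the surfactant genes Sftpd at 397 and Abca3 at 370, while Nkx2-1 gave 7.66. The lowest lung epithelial markers were Napsa at 1.94 and Scgb1a1 at 1.38. Markers of other cell types passed the line in 2 of 10 fibroblast, 3 of 9 leukocyte and 5 of 10 endothelial genes, where 63.3% of all measured genes did. Their summed signals were 113, 238 and 234. Above the upper limit were the leukocyte markers S100a8 at 75.8 and Cd68 at 69.8 and the endothelial marker Egfl7 at 111, and between the line and the limit lay, among others, Csf1r at 47.1, Kdr at 30.3 and Col6a3 at 19.8. Named after their values were seen, the fibroblast collagen gene Col1a1 gave 10.4, the leukocyte gene Ptprc 11.5 and the endothelial genes Pecam1 14.3 and Cdh5 17.4, the last just above the line. The part of other cell types in the members' signals was not tested. The ratio of 3′ to 5′ control probe sets was 1.10 for beta-actin and 0.795 for Gapdh.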

How the data were processed

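Total RNA of 1 sample of mouse lung cancer cells gave biotin-labelled cRNA for 1 Affymetrix array, per the labels' protocols. The authors deposited a linear intensity for each of 45101 probe sets, from 0.0591 to 8928. The submitters' processing notes name Affymetrix Expression Console. Algorithm, background correction and scaling are not given in the sources, and no detection call was used, so dim signals carry little information on amount. The single array limits the precision.

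Probe sets were named by the platform annotation, where 34945 non-control probe sets named 1 gene, 932 several and 9160 none. Symbols were updated through gene IDs in a RefSeq table for 34741 of them. A gene's signal is that of its highest probe set. With 1 sample no test was made. Cell type markers were named without a fixed rule. Otherwise the rule named all members and the 3 highest and 2 lowest measured genes of each of the 10 lists. It also named Nkx2-1, Igf2, H19 and Myc where measured. Another gene of that rule is not reported here. H19 had no one-gene probe set in the annotation used. The members and lists were chosen with earlier results of these data known. The code for the line and gene signals was run on simulated data with known on and off genes. That run checks the code and cannot show that the line suits these data. Alternatives changed the line, the background set, which probe sets counted and how those of a gene were combined. Python 3.11.15, numpy 2.4.6, pandas 2.3.3 and matplotlib 3.10.9 were used.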

Additional observations from a re-analysis of the deposited data

Results flagged for a closer look

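A signal appeared outside the members. The only probe set of Hmga2-ps1, a transcribed pseudogene of Hmga2, gave 82.4, which is 4.91 times the background line and 1.36 times the upper background limit. Such a signal was common on the array. Of all one-gene probe sets, 63.3% were lower and 41.1% passed the upper limit. It was not counted as Hmga2, because the annotation lists it as a gene of its own on chromosome 1. Whether the probe set also takes up Hmga2 transcripts was not tested.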

How the results depend on the processing

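Hmga2 and Igf2bp1 stayed above the line, and Lin28a and Lin28b below it, under all 7 alternatives. Igf2bp3, at 0.93 over the line on the log2 scale, fell below it under 4 of them: -0.21 with the 99th percentile of the background set, -1.56 with the median plus 3 scaled median absolute deviations, -1.35 with the median over its probe sets and -4.23 when every probe set had to pass. The count of members above the line was accordingly 2 or 3, that of member probe sets 6 to 10 and that of members above the upper limit 2 or 3, the 3 with olfactory and vomeronasal receptors only. Of 70 recomputed counts of the 10 lists, 58 stayed within 1.5 times the value given. With the 99th percentile, the oncofetal and fetal growth list had 7 genes above the line. With the median plus deviations, which put the line at 94.6, it had 4, the let-7 target list 14, the IGF axis 7, the pluripotency list 0 and the lung and gut identity list 7. With the median over probe sets, the pluripotency list had 1. When every probe set had to pass, the counts were 10 for let-7 processing, 6 for the IGF axis, 1 for pluripotency, 6 for oncofetal genes and 7 for HMGA-related genes. A higher line or a stricter rule admits fewer genes by construction. No paired analysis was possible because there was 1 sample.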

Other observations

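Other genes of the high mobility group, which encode small chromatin proteins or proteins with an HMG box, passed the line in all 10 measured cases. Of the 10, 8 were above the upper limit (80.0%), and the median was 487. Of all measured genes, 63.3% passed the line and 47.5% the limit. The nucleosome-binding protein gene Hmgn1 gave 6692, and the DNA-bending protein genes Hmgb2 and Hmgb3 gave 1849 and 1361. Hmgn3 at 49.4 and Hmg20b at 46.5 lay between the line and the limit. Of 14 measured genes reported to be regulated by or with HMGA proteins, 12 passed the line (85.7%) and 10 the upper limit (71.4%). Their median was 256. Tgfbr2, a TGF-beta receptor gene, gave 1809 on the highest of 3 probe sets and Ccnb2, a mitotic cyclin gene, gave 1134. Bub3, a mitotic checkpoint gene, gave 1682 on the highest of 5 probe sets, of which 2 passed the upper limit. The mesenchymal regulators Snai1 at 15.8 and Twist1 at 1.08 were below the line.

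Of 15 measured lung and gut identity factors, 12 passed the line (80.0%, against 63.3% of all measured genes). The upper limit was passed by 8 (53.3%, near the 47.5% of all measured genes), and the median was 72.6. Foxa1, a pioneer factor of endoderm, gave 2021, Id2, which is active in the tips of the fetal lung, gave 1954 and Hnf4a, a liver and gut factor, gave 813. The lowest were Cebpa at 11.2 and Nkx2-1 at 7.66, both below the line. Hmga2 signal was thus found beside Nkx2-1 at background, in a single sample in which the 2 cannot be related to each other. Nkx2-1 had only 1 probe set, so few transcripts and poorly responding probes cannot be told apart for it.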
